A study of Mus musculus with 3 samples.

Results

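The 9 genes described here are chemokine ligands: Ccl2, Ccl3, Ccl4, Ccl5, Ccl6, Ccl12, Cxcl10, Cxcl14 and Cxcl16. They were taken by gene symbol from a table of 54532 genes, and each symbol matched 1 row. No chemokine receptor is among the 9, so receptors are given from a separate list. The table holds 1 RNA-seq library for each of 3 genotypes, all from the hippocampus of 10-month-old C57BL/6 mice: wild type (WT), PS19, and PS19 with a Zbp1+/- genotype (PS19 Zbp1+/-). PS19 mice carry a mutant human tau transgene under the mouse Prnp promoter, and the transgene is present in both PS19 groups but not in WT. Zbp1 encodes a sensor of Z-form nucleic acids. The sources used here do not say whether a library came from 1 animal or from pooled animals. With 1 library per genotype there is no replicate spread and no test of the genotypes, and every difference below is between these libraries.

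Chemokines are small secreted proteins that direct the movement of leukocytes through G protein-coupled receptors. The CC and CXC classes are named for the spacing of the first cysteines of the protein. In brain, many ligands are made at low levels until microglia, astrocytes or entering leukocytes are activated. Their transcription then commonly depends on NF-kB and on interferon-regulated factors. A few, such as Cxcl12, Cxcl14 and Cx3cl1, are made by resting tissue, Cx3cl1 mainly by neurons.

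The recovered reads summed to between 16400328 and 17109734 per library. Values given in sets of 3 are in the order WT, PS19, PS19 Zbp1+/-. Zbp1 itself counted 5, 91 and 0 reads. PS19 Zbp1+/- was thus at least 27.8-fold below PS19, a lower level than loss of 1 of 2 alleles would give at the PS19 level. Against the 5 reads in WT a heterozygote and a null cannot be told apart at this depth. PS19 Zbp1+/- here means the library labelled so. Markers of hippocampal excitatory neurons were present in every library, with summed levels of 485, 383 and 700 FPKM (fragments per kilobase of gene, divided also by library size) in WT, PS19 and PS19 Zbp1+/-. The PS19 Zbp1+/- library differed from the other two in sex-linked reads (Xist 11062 and 13350 reads in WT and PS19 against 0, and Ddx3y 0 and 0 against 711). Scarce transcripts were also missing from it more often. Where WT and PS19 each held 10 to 20 reads of a gene, PS19 Zbp1+/- held none for 7.53% (60 of 797, exact 95% interval 5.79% to 9.58%). The matching shares were 0% for PS19 (of 570 genes, up to 0.645%) and 0.546% for WT (3 of 549). Where they each held 30 to 60 reads, it held none for 1.01% (8 of 792). At lower counts such zeros were more frequent. Where the other libraries each held 8 to 12 reads, the share with none was 16% in PS19 Zbp1+/-, 2.14% in WT and 0.41% in PS19. At 1 to 3 reads these shares were 64.4%, 32.5% and 25.5%.

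In the PS19 library 8 of the 9 chemokines stood above both other libraries, and Cxcl14 did not. The summed level of the 8 was 1.96 FPKM in WT, 31.3 FPKM in PS19 and 1.75 FPKM in PS19 Zbp1+/-, from 64, 750 and 45 reads. In bulk tissue, more cells of a type and more RNA per cell cannot be told apart. In WT and in PS19 Zbp1+/- none of the 8 reached 1 FPKM, and in PS19 7 of them did. The highest single level among the 8 was that of Cxcl16 in WT (0.595 FPKM) and that of Ccl6 in PS19 (8.19 FPKM) and PS19 Zbp1+/- (0.986 FPKM). Cxcl14 alone exceeded all of these in every library.

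**Figure D1:**
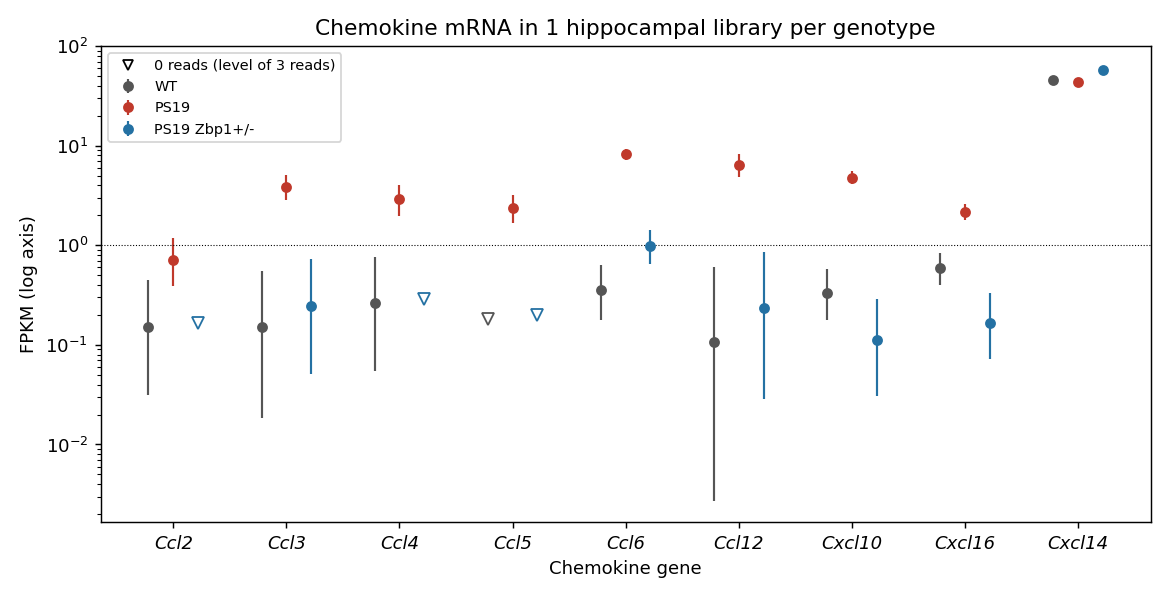
FPKM of the 9 chemokine genes on a log axis, 1 library per genotype, with bars for exact Poisson 95% intervals (counting error only) and open triangles for the level of 3 reads where a library had 0 reads. The PS19 points of 7 genes lie above the dotted line at 1 FPKM, where the other two libraries lie below it, and Cxcl14 lies between 44.2 and 58.1 FPKM in all 3.

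Ccl2 and Ccl12 encode ligands of Ccr2, the receptor that draws inflammatory monocytes. Ccl2 (ENSMUSG00000035385, chromosome 11, 82035571 to 82037453, plus strand, positions being on GRCm38 throughout) counted 3, 14 and 0 reads, or 0.153, 0.712 and 0 FPKM. Ccl12 (ENSMUSG00000035352, chromosome 11, 82101845 to 82103400, plus strand) had 1, 59 and 2 reads, or 0.108, 6.36 and 0.235 FPKM. PS19 was the high library for both genes, and the other two libraries were within 3 reads of each other. Per library size, the PS19 over WT read ratio was 58.9 for Ccl12 (exact Clopper-Pearson 95% interval 10.2 to 2365) and 4.66 for Ccl2 (1.30 to 25.3). These intervals, like all others here, cover counting error only: the reads carry no molecular identifiers and may repeat a molecule. Against PS19, the PS19 Zbp1+/- level of Ccl12 was 27-fold lower (7.15 to 228) and that of Ccl2 at least 4.27-fold lower. Such bounds set a count of 0 to 3 reads, and the exact interval, which is wider, reached down to 3.04 for Ccl2.

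Ccl3 and Ccl4 encode neighbouring CC ligands made by activated macrophages and microglia. Ccl3 (ENSMUSG00000000982, chromosome 11, 83647844 to 83649355, minus strand) counted 2, 51 and 3 reads, or 0.151, 3.85 and 0.247 FPKM. Ccl4 (ENSMUSG00000018930, chromosome 11, 83662584 to 83664683, plus strand) had 3, 33 and 0 reads, or 0.263, 2.89 and 0 FPKM. Again PS19 was the high library. The PS19 over WT ratio was 25.4 for Ccl3 (6.69 to 216) and 11 for Ccl4 (3.44 to 55.9). Ccl3 in PS19 Zbp1+/- was 15.6-fold below PS19 (5.03 to 78) and Ccl4 at least 10.1-fold below it (exact lower limit 7.74).

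Ccl5, a CC ligand made by T cells and also by glia, had 39 reads in PS19 and none in either other library (ENSMUSG00000035042, chromosome 11, 83525778 to 83530518, minus strand). Its PS19 level was 2.35 FPKM. The level of 3 reads was 0.181 FPKM in WT and 0.197 FPKM in PS19 Zbp1+/-. The PS19 level of Ccl5 was thus at least 13-fold above WT and at least 11.9-fold above PS19 Zbp1+/-, with exact lower limits of 10.1 and 9.23.

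Ccl6 encodes a rodent CC ligand of myeloid cells that acts through Ccr1. It counted 11, 254 and 28 reads, or 0.355, 8.19 and 0.986 FPKM (ENSMUSG00000018927, chromosome 11, 83587882 to 83593087, minus strand). It had the most reads of the 8 low-level chemokines in PS19, 23-fold above WT (12.7 to 46.8). With the Zbp1+/- genotype it was 8.30-fold below PS19 (5.61 to 12.7) but still 2.77-fold above WT (1.34 to 6.18). The Poisson intervals of its level, 0.177 to 0.636 FPKM in WT and 0.655 to 1.42 FPKM in PS19 Zbp1+/-, did not overlap.

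Cxcl10, an interferon-induced ligand of Cxcr3 on activated T cells, counted 13, 186 and 4 reads, or 0.335, 4.78 and 0.112 FPKM (ENSMUSG00000034855, chromosome 5, 92346638 to 92348889, minus strand). Its PS19 level was 14.3-fold above WT (8.15 to 27.3) and 42.6-fold above PS19 Zbp1+/- (16.4 to 158). The latter was the highest fold among chemokines of the 9 with a read in PS19 Zbp1+/-, the others having bounds only. Cxcl16, a membrane-anchored ligand of Cxcr6 that can be shed by proteases, had 31, 114 and 8 reads, or 0.595, 2.18 and 0.167 FPKM (ENSMUSG00000018920, chromosome 11, 70453983 to 70459984, minus strand). Its PS19 over WT ratio was 3.67 (2.45 to 5.65), and PS19 Zbp1+/- was 13-fold below PS19 (6.40 to 30.9) and 3.55-fold below WT (1.60 to 8.95). Both genes overlap another gene on the opposite strand, and the sources used here do not say whether counting used strand. Cxcl10 shares 133 exon bases with Art3, or 5.91% of its length, and Art3 had 41, 49 and 26 reads. Cxcl16 shares 552 bases with Zmynd15, or 18.3% of its length, and Zmynd15 had 17, 32 and 7 reads. The part of these shared bases in the Cxcl10 and Cxcl16 values was not tested.

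Cxcl14 is a conserved CXC ligand of resting tissue, known in hippocampus from subsets of GABAergic interneurons. It counted 1450, 1395 and 1681 reads, or 46, 44.2 and 58.1 FPKM (ENSMUSG00000021508, chromosome 13, 56288643 to 56296551, minus strand). The WT and PS19 libraries could not be told apart by counting error (ratio 0.960, 0.891 to 1.03), and that ratio was above 1 after rescaling to TPM. PS19 Zbp1+/- was 1.32-fold above PS19 (1.23 to 1.41) and 1.26-fold above WT (1.18 to 1.36). Cxcl14 lay above 96.1% of 21925 protein-coding genes in PS19, whereas Ccl6, the next of the 9, lay above 74.6%.

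The 5 promoters at hand differ in the letters they hold, and 3 are shown: that of Cxcl10, with matches to every motif searched, that of Ccl12, with the highest PS19 over WT ratio that is not a bound, and that of Cxcl14, with no 2-fold difference. Each is the 250 bases before the annotated start, 5′ to 3′ on the strand of the gene, from RefSeq (GRCm38.p6), which held an entry for 5 of the 9 genes (not for Ccl2, Ccl4, Ccl5 and Cxcl16). Capitals mark matches on either strand to the kB consensus bound by NF-kB, to the interferon-stimulated response element core GAAANNGAA, or to the AP-1 site TGANTCA. Cxcl10 is at chr5:92348890-92349139 (minus strand), Ccl12 at chr11:82101595-82101844 (plus strand) and Cxcl14 at chr13:56296552-56296801 (minus strand).
Cxcl10: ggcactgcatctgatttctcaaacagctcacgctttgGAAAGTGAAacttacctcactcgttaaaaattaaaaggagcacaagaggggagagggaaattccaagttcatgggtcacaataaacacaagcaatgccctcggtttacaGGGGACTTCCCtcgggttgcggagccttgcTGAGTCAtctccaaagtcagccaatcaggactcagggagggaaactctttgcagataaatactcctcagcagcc
Ccl12: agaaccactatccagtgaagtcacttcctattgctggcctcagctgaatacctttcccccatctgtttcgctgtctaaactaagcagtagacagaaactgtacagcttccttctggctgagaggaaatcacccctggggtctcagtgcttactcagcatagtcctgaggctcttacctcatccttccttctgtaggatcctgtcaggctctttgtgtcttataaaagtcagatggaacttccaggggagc
Cxcl14: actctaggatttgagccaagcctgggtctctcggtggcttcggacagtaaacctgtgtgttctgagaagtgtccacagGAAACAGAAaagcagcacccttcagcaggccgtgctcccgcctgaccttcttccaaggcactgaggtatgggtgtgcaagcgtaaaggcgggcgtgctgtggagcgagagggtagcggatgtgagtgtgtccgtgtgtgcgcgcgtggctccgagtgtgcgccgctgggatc
Cxcl10 held the response element match GAAAGTGAA starting 213 bases before the start, 2 overlapping kB matches from 104 and 103 bases before it, and the palindromic AP-1 match TGAGTCA from 74 bases before it. Cxcl14 held 1 response element match, GAAACAGAA, at 172 bases. Ccl3 held 1 on the opposite strand, TTCCATTTC, at 39 bases. Ccl12 and Ccl6 held no match in this window. Over 32851 promoters of the same length, 5% held a kB match, 7.13% a response element match and 6.75% an AP-1 match, on either strand. A match is a description of the letters and says nothing of binding.

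Genes were called at a 2-fold difference by 2 measures. On the log2(FPKM + 1) scale, over protein-coding genes at 1 FPKM or more in either library, 6 of the 8 chemokines tested were called higher in PS19 than in WT, beside 2.2% of 12703 genes. Their differences were 2.76 for Ccl6, 2.73 for Ccl12, 2.11 for Cxcl10, 2.08 for Ccl3, 1.74 for Ccl5 and 1.62 for Ccl4. Ccl6 and Ccl12 were 9th and 10th from the top of the 12703 genes. Cxcl16, at 0.997, was just under the threshold of 1, and Cxcl14 was at -0.06. By read ratio, over genes with at least 20 reads in both libraries together, 7 of 8 tested chemokines were called higher, beside 6.02% of 14646 genes. Scarce genes pass such a threshold more often: among genes with 20 to 300 reads 15.8% were called higher and 5.24% lower, a background added after the data were seen. Ccl2 had too few reads for either measure, and 7 of the tested chemokines passed the FPKM filter only through PS19. Of the 7 called by reads, only Cxcl16 reached 20 reads in WT, so the others were tested only through PS19. None of the 9 was called lower, beside 0.291% of genes by FPKM and 1.6% by reads.

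**Figure D2:**
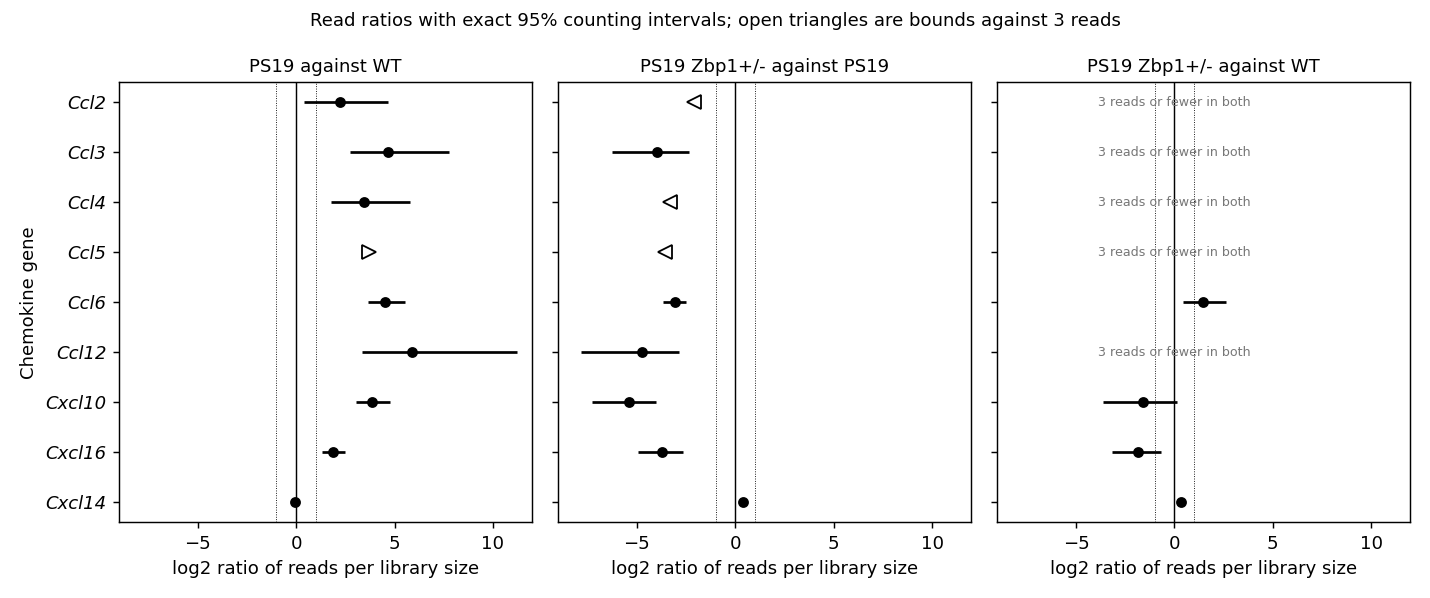
Log2 ratio of reads per library size for each chemokine in the 3 comparisons, with exact 95% counting intervals as bars, open triangles for bounds against 3 reads, and dotted lines at 2-fold. In the first panel 8 genes lie right of 0 and in the second the same 8 lie left of it, the shared PS19 library entering both. In the third, Ccl6 lies right of 0 and Cxcl16 left of it.

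The calls in PS19 Zbp1+/- against PS19 were of lower levels. On the log2(FPKM + 1) scale 7 of 8 tested chemokines were called lower, beside 5.16% of 12772 genes, with differences from -1.45 for Cxcl16 to -2.57 for Ccl12. All 7 passed the FPKM filter only through PS19, the library where they were high. By reads the count was again 7 of 8, beside 12.6% of 14525 genes and 31.8% of the genes with 20 to 300 reads (7.88% of which were called higher). The median log2 read ratio of the latter genes was -0.40, so scarce genes as a whole were low in PS19 Zbp1+/-. Cxcl10 was 32nd and Ccl12 64th from the bottom of the 14525 genes. Of the 7 called by reads, only Ccl6 reached 20 reads in PS19 Zbp1+/- itself, so the others were tested only through PS19. No chemokine of the 9 was called higher, beside 2% of genes by FPKM and 4.24% by reads. Of all calls by FPKM, 27.9% were higher with the deposited scaling, 11.1% when libraries were rescaled to TPM and 14.7% when total reads set the scale. The first 2 comparisons share the PS19 library, so an error in that library would move both, in opposite directions.

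The comparison of PS19 Zbp1+/- with WT does not use PS19. Of the 9 chemokines, 5 had 3 reads or fewer in both libraries, and a difference in them was not detectable at this depth. By reads 3 were tested: Ccl6 was called higher, beside 3.5% of 14352 genes, Cxcl16 was called lower, beside 7.27%, and Cxcl14 was not called. Among genes with 20 to 300 reads the shares were 8.14% higher and 21.3% lower. Cxcl10 had too few reads to be tested, with a PS19 Zbp1+/- over WT ratio of 0.335 whose interval of 0.0797 to 1.09 includes 1. On the log2(FPKM + 1) scale only Cxcl14 reached 1 FPKM, at a difference of 0.33, and 0 of 1 tested chemokines was called, beside 1.07% of genes higher and 2.28% lower. The higher share of all calls was 32%, or 19% when libraries were rescaled to TPM and 17.3% when total reads set the scale.

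Ratios between chemokines within a library do not depend on library scaling, and they differed between libraries. Ccl6 reads per Cxcl16 read were 0.355 in WT (0.161 to 0.725), 2.23 in PS19 (1.78 to 2.80) and 3.5 in PS19 Zbp1+/- (1.55 to 8.89). WT was apart from both other libraries, whose intervals overlap. Ccl6 reads per Cxcl10 read were 0.846 in WT (0.343 to 2.05), 1.37 in PS19 (1.13 to 1.66) and 7 in PS19 Zbp1+/- (2.45 to 27.5), so here PS19 Zbp1+/- was the library apart. Cxcl10 reads per Cxcl16 read were 0.419, 1.63 and 0.5, with PS19 above WT (0.201 to 0.825 against 1.29 to 2.08) and overlapping PS19 Zbp1+/- (0.110 to 1.87). Of the summed FPKM of the 8 genes, Ccl6 made up 18.1%, 26.1% and 56.4%, with its highest share in PS19 Zbp1+/-. Cxcl16 made up 30.3%, 6.97% and 9.57%, with its highest share in WT.

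Of the 9 genes, 6 are CC ligands that lie in 2 groups on chromosome 11. Ccl2 and Ccl12 lie with Ccl7, Ccl11, Ccl8 and Ccl1, and Ccl5, Ccl6, Ccl3 and Ccl4 lie with Ccl9 after a gap of 1220 kb. Every one of these 11 genes but Ccl1, which had no read, had its highest read count in PS19. Within each group the counts were uneven. Ccl12 had 59 reads in PS19 where Ccl7, Ccl11 and Ccl8 had 5, 3 and 7. Ccl6 and its neighbour Ccl9, 9.25 kb away, held 254 and 130 reads in PS19, 11 and 41 in WT, and 28 and 19 in PS19 Zbp1+/-. Ccl6 reads per Ccl9 read were 0.268 in WT (0.124 to 0.531), 1.95 in PS19 (1.58 to 2.43) and 1.47 in PS19 Zbp1+/- (0.794 to 2.79), so that Ccl6 had fewer reads than Ccl9 in WT and more in the other two libraries, the PS19 Zbp1+/- interval including 1.

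**Figure D3:**
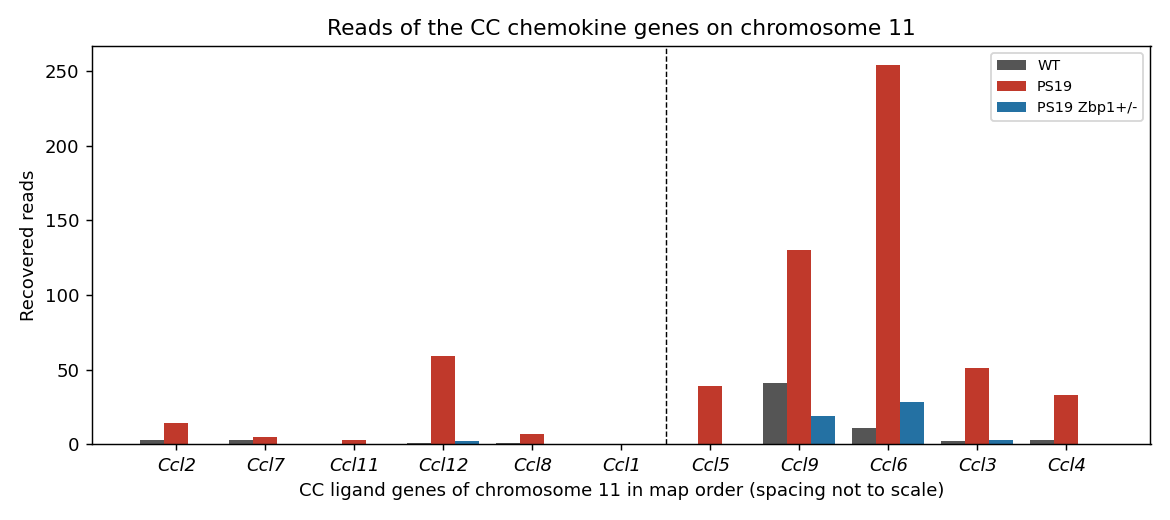
Recovered reads of the 11 CC ligand genes of chromosome 11 in map order, with bars for the WT, PS19 and PS19 Zbp1+/- libraries and a dashed line at the 1220 kb gap. PS19 has the tallest bar at each gene but Ccl1, and Ccl6 reaches 254 reads.

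Of 32 other ligands listed, 31 had a row on an assembled chromosome and 11 had the reads to be tested between PS19 and WT. Among these, 4 were called higher and 0 lower: Cxcl13, Cxcl9, Cxcl5 and Ccl9. Over all genes 6.02% were called higher, and 15.8% of those with 20 to 300 reads. The median log2 read ratio of the 11 was 0.62, beside -0.01 for all genes. Cxcl13, which draws B cells, counted 1, 31 and 0 reads. Cxcl9, a Cxcr3 ligand like Cxcl10, had 0, 28 and 0 reads, at least 9.31-fold higher in PS19 than in WT. Cxcl5, a ligand of the neutrophil receptor Cxcr2, had 37, 162 and 6 reads, so that PS19 was 4.37-fold above WT (3.04 to 6.43) and PS19 Zbp1+/- 5.66-fold below it (2.37 to 16.4). These 3 genes thus had their highest count in PS19. Against PS19, 4 of 10 ligands tested in PS19 Zbp1+/- were called lower and 0 higher (median -0.22, all genes 0.02), near the 31.8% called lower among genes with 20 to 300 reads (12.6% over all genes). Against WT 1 of 8, Cxcl5, was called lower (median 0.27, all genes -0.01), beside 7.27% of all genes and 21.3% of those with 20 to 300 reads. Cx3cl1, the neuronal ligand of the microglial receptor Cx3cr1, had 125, 108 and 166 FPKM, above each of the 9 chemokines in each library, and was called in no comparison. Cxcl12, at 7.85, 6.64 and 9.82 FPKM, was not called either. Like Cxcl14, both had their highest level in PS19 Zbp1+/-.

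Of 24 receptors, 8 were tested between PS19 and WT, with 4 called higher and 0 lower (median log2 read ratio 0.96), beside 6.02% of all genes and 15.8% of those with 20 to 300 reads. Cx3cr1, Ccrl2 and Cxcr4 were among them. Cx3cr1, the receptor by which microglia sense Cx3cl1, had 317, 1718 and 768 reads. PS19 was 5.41-fold above WT (4.80 to 6.12), and PS19 Zbp1+/- was still 2.64-fold above WT (2.31 to 3.02), an intermediate level. Ccrl2, an atypical receptor that presents chemerin, had 11, 26 and 17 reads. Several receptors for the chemokines described here were scarce: Ccr1, a receptor for Ccl6 and Ccl3, had 5, 13 and 0 reads. Ccr2, the receptor for Ccl2 and Ccl12, had 4, 8 and 0 reads. Cxcr3, the receptor for Cxcl10, had 1, 14 and 0, and Cxcr6, the receptor for Cxcl16, had 0, 9 and 0. These 4 had their highest count in PS19 and none had a read in PS19 Zbp1+/-, a library in which genes this scarce often had none.

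Of 8 receptors tested in PS19 Zbp1+/- against PS19, 4 were called lower and 1 higher (median -0.76). Among genes with 20 to 300 reads 31.8% were called lower and 7.88% higher, and over all genes 12.6% and 4.24%. Cxcr4, the receptor for Cxcl12, counted 43, 94 and 12 reads, so that PS19 Zbp1+/- was 7.17-fold below PS19 (3.92 to 14.4) and 3.29-fold below WT (1.70 to 6.85). Ackr4, a scavenging receptor, had 19, 33 and 4 reads, and 8.9% of its length is shared with Acad11 on the opposite strand. Ackr2, a scavenger of inflammatory CC chemokines, was the exception, with 13, 11 and 43 reads, so that PS19 Zbp1+/- was 4.27-fold above PS19 (2.17 to 9.18) and 3.61-fold above WT (1.90 to 7.31). Against WT, of 8 tested, 2 receptors were called higher (Cx3cr1 and Ackr2) and 2 lower (Ackr4 and Cxcr4), with a median of 0.15, beside 8.14% higher and 21.3% lower among genes with 20 to 300 reads. Over all genes the shares were 3.5% and 7.27%, and Cx3cr1 had more than 300 reads. Ackr1, at 26.6, 17.8 and 28.5 FPKM, shares 361 exon bases with Cadm3 on the same strand, so that its level is uncertain.

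**Figure D4:**
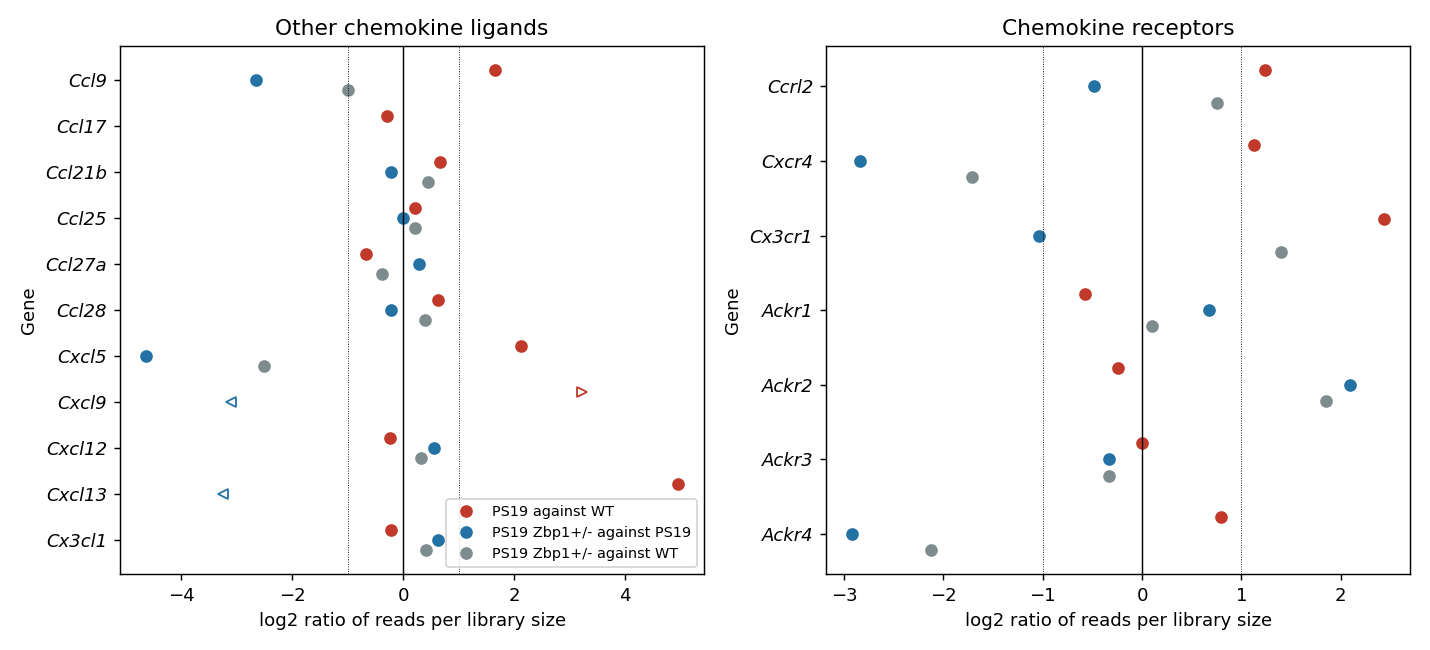
Log2 ratio of reads per library size for the other chemokine ligands (left) and the receptors (right) with at least 20 reads in the 2 libraries compared, 1 receptor being left out. Colours mark the 3 comparisons, open triangles mark bounds against 3 reads, and dotted lines mark 2-fold. Cxcl13, Cxcl9, Cxcl5 and Ccl9 lie right of 2-fold for PS19 against WT and left of it for PS19 Zbp1+/- against PS19, while Ackr2 lies right of 2-fold for PS19 Zbp1+/- against either library.

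Genes that carry the signal inside the cell included 19 of 30 within 2-fold in PS19 against WT. Of the 30 tested, 11 were called higher and 0 lower in PS19 than in WT (median 0.34), beside 6.02% of all genes and 15.8% of those with 20 to 300 reads called higher, Fgr and Dock2 being among them. Fgr, a Src-family kinase of myeloid cells, counted 3, 44 and 0 reads. Dock2, a Rac activator needed for leukocyte migration, had 67, 308 and 65. Both had their highest count in PS19. Against PS19, 5 of 30 were called lower in PS19 Zbp1+/- and 0 higher (median -0.17), beside 12.6% of all genes lower. Against WT, 1 of 29 was called, Was, an actin regulator of leukocytes, which was higher at 40 reads against 15 (median 0.31). That share of 29 is near the 3.5% called higher over all genes. Of 7 tested proteases that cut chemokines, 0 were called in PS19 against WT (median 0.44), and by the log2(FPKM + 1) measure 0 of 5. Over all genes 6.02% were called higher and 1.6% lower by reads, and 2.2% and 0.291% by FPKM. With so few proteases, 0 calls is near these shares. With PS19 Zbp1+/- against PS19, 2 of the proteases were called lower, Mmp2 (135 to 37 reads) and Adam17 (468 to 187 reads), with a median of -0.64. That share of 7 is near the 31.8% called lower among genes with 20 to 300 reads (12.6% over all genes). Mmp2 lies in that range of reads, and Adam17 lies above it. Mmp2 was also called lower against WT, at 2.16-fold (1.45 to 3.26), as 1 of 7 (median -0.22). Beside it stand 7.27% of all genes and 21.3% of those with 20 to 300 reads, so 1 of 7 is not above that background. Adam10, which sheds Cxcl16 and Cx3cl1, had 1415, 1522 and 1115 reads.

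Of 17 tested genes that regulate chemokine transcription, 4 were called higher in PS19 than in WT and 0 lower (median 0.39), beside 6.02% of all genes and 15.8% of those with 20 to 300 reads. Irf7, an interferon-induced factor, counted 46, 236 and 31 reads. Irf8, a myeloid factor, had 98, 487 and 124, and Nfkb2 had 55, 142 and 27. PS19 was the high library for each. Of 18 tested in PS19 Zbp1+/- against PS19, 9 were called lower and 0 higher (median -1.03), beside 12.6% of all genes and 31.8% of those with 20 to 300 reads. Against WT 2 of 17 were called lower (7.27% of all genes, 21.3% of those with 20 to 300 reads), Cebpb (467 to 177 reads) and Irf3 (452 to 185 reads), with a median of -0.39. Cebpb and Irf3 lie above that range of reads. The inducing cytokines were near or at 0: Tnf had 0, 5 and 0 reads, Il1b had 3, 16 and 1, and Ifnb1 and Ifng had no read in any library.

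Most microglia markers went in the direction of the chemokines. The 9 microglia markers summed to 88.2, 199 and 94.1 FPKM, with 8 of 9 higher in PS19 than in WT and 9 of 9 lower in PS19 Zbp1+/- than in PS19. Those sums changed 2.26-fold and 2.11-fold, less than any of the 8 chemokines without Cxcl14 did. Divided by the microglia sum, the PS19 over WT ratio was still 26.1 for Ccl12 (4.51 to 1048), 11.3 for Ccl3 (2.97 to 95.7), 10.2 for Ccl6 (5.61 to 20.7), 6.33 for Cxcl10 (3.61 to 12.1) and 4.87 for Ccl4 (1.53 to 24.8), and for Ccl5 it was at least 5.75. It was 1.63 for Cxcl16 (1.086 to 2.505), under 2-fold, and 2.06 for Ccl2, with an interval of 0.576 to 11.2 that includes 1. Cxcl14 on this scale was 2.35-fold lower in PS19 than in WT (2.18 to 2.53). On the same scale PS19 Zbp1+/- was below PS19 by 20.1-fold for Cxcl10 (7.73 to 74.7), 6.17-fold for Cxcl16 (3.03 to 14.6) and 3.93-fold for Ccl6 (2.65 to 6.03). Cxcl14 was 2.78-fold higher there (2.59 to 2.99), past the 2-fold call that it missed when scaled by library size. By library size Cxcl14 was at 0.960 for PS19 over WT and 1.32 for PS19 Zbp1+/- over PS19. Both scaled Cxcl14 folds thus mainly restate the 2.26-fold and 2.11-fold changes of the microglia sum. Intervals on this scale take the microglia sums as exact.

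Markers of entering leukocytes were scarce in each library. Genes this scarce often had no read in PS19 Zbp1+/-, as given above, so its zeros below do not show absence. T cell markers (9 genes) summed to 49, 117 and 90 reads, all 9 being higher in PS19 than in WT. Several rest on few reads: Trbc2 had 3 in WT and 4 in PS19, and Cd3g and Cd8b1 had 3 and 5, with intervals that include 1. In PS19 Zbp1+/- 6 of the 9 were at 0, among them Cd3e, Cd3d, Cd3g and Cd8a. The remaining reads were of Lck, Trac and Cd4. These were higher than in PS19 (53 against 50, 20 against 12 and 17 against 10 reads), unlike the chemokines other than Cxcl14, with intervals that include 1. Neutrophil markers (6 genes) summed to 13, 61 and 10 reads, with Ly6g at 0 in each library. NK cell markers (5 genes) summed to 8, 19 and 8 reads, with Ncr1 at 0 in each. Monocyte markers (6 genes) summed to 5.06, 9.02 and 8.10 FPKM, mostly Fn1, and Ly6c2, Plac8 and Chil3 were at 0 in PS19 Zbp1+/-. Border macrophage markers (7 genes) summed to 5.01, 7.08 and 2.88 FPKM, and Stab1 made 2.35 FPKM of the last sum. Ms4a7 was at 0 in PS19 Zbp1+/-. Mrc1, the mannose receptor of these macrophages, had 80, 119 and 6 reads, so that PS19 Zbp1+/- was 18.2-fold below PS19 (8.10 to 50.5) and 12.2-fold below WT (5.38 to 34.3). Cd163, a scavenger receptor, had 37, 95 and 8 reads, 10.9-fold lower against PS19 (5.30 to 25.9). Cd163, Cbr2, Lyve1 and F13a1 were also called lower in PS19 Zbp1+/- than in WT. Beside these calls stand 7.27% of all genes and 21.3% of those with 20 to 300 reads. Stab1 was not called, at 379, 511 and 383 reads. Lyve1 (23, 12 and 3 reads) and F13a1 (47, 39 and 13 reads) were lower in PS19 than in WT, unlike the chemokines other than Cxcl14. The Mrc1 and Cd163 folds against PS19 are in the range of the chemokines, but the list as a whole did not share their pattern. The part of these cells in the chemokine values was not tested.

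Tissue composition differed as well. Choroid plexus markers (6 genes) summed to 3120, 1907 and 10.5 FPKM, PS19 Zbp1+/- being the low library. The part of that difference in the PS19 Zbp1+/- values was not tested. Astrocyte markers (6 genes) summed to 339, 457 and 419 FPKM and endothelial markers (6 genes) to 56.8, 60.2 and 67 FPKM. Aldoc made most of each astrocyte sum, and the endothelial sum was highest in PS19 Zbp1+/- through Cldn5. Most single markers went in the direction of the chemokines. In PS19, 6 of 6 astrocyte and 5 of 6 endothelial markers were higher than in WT. In PS19 Zbp1+/-, 5 of 6 in each list were lower than in PS19. Only Aqp4 of these reached 2-fold in either comparison. The other PS19 over WT ratios were 1.18 to 1.46 for astrocyte and 0.850 to 1.87 for endothelial markers. Those of Pecam1 (0.896 to 1.23) and Ly6c1 (0.913 to 1.15) had intervals that include 1. Aqp4, the water channel of astrocyte endfeet, had 1945, 5464 and 1364 reads, with PS19 2.80-fold above WT (2.66 to 2.95) and PS19 Zbp1+/- 3.67-fold below PS19 (3.46 to 3.89). The part of these cells in the chemokine values was not tested either. GABAergic interneuron markers (9 genes), the cells known for Cxcl14, summed to 777, 552 and 763 FPKM, with 3 of 9 higher in PS19 than in WT. The lower PS19 sum came mainly from Cck (241 to 143 FPKM) and Sst (315 to 201 FPKM), while PS19 over WT ratios of the genes shared by all GABAergic cells were 1.002 for Gad1, 1.31 for Gad2 and 1.16 for Slc32a1.

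**Figure D5:**
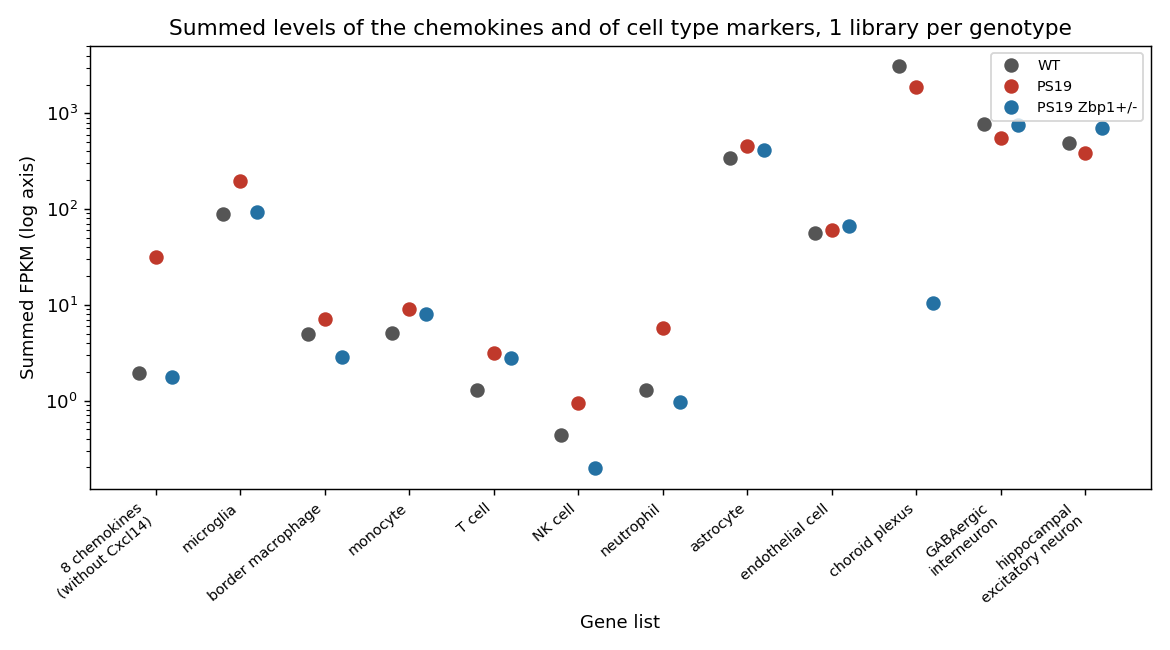
Summed FPKM on a log axis of the 8 chemokines without Cxcl14 and of 11 lists of cell type markers, with points for the WT, PS19 and PS19 Zbp1+/- libraries. The chemokine sum is 31.3 in PS19 against 1.96 and 1.75, the microglia sum 199 against 88.2 and 94.1, and the choroid plexus sum 10.5 in PS19 Zbp1+/-.

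The genes whose levels over the 3 libraries were most like those of each chemokine were sought among 12844 protein-coding genes, by Euclidean distance in log2(FPKM + 1) centred on the mean of the 3 libraries. Ccl3 was nearest to C1qc (distance 0.0393), C1qb and Trem2, which are microglial genes of complement and lipid sensing. Cxcl10 was nearest to C1qa (0.0315), the interferon-induced Oasl2, and Slamf9. Ccl12 was nearest to Serpina3n (0.0901), Gfap and Cd52, and Ccl6 to Serpina3n (0.230), Aspg and Itgb2. Serpina3n and Gfap are astrocyte genes, and Itgb2 is a leukocyte integrin. Cxcl16 was nearest to Galnt6 (0.0517), S100a9 and Fcgr1. Cxcl14, whose level differed little, was nearest to Sdad1 (0.00617), Dzip1 and Taf1c. Such nearness rests on 3 libraries only and depends on the size of the change on this scale. The pseudocount of 1 shrinks the change of low genes, so near genes can differ widely in fold. Ccl3 was at 0.151, 3.85 and 0.247 FPKM, beside 17.4, 75 and 18.2 FPKM for C1qc. Cxcl10 was at 0.335, 4.78 and 0.112 FPKM, beside 48, 205 and 39.4 FPKM for C1qa.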

How the data were processed

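RNA from 3 hippocampal samples was sequenced, 1 per genotype, with TRIzol extraction and an NEB Next Ultra RNA kit per the labels' protocols. The authors deposited FPKM values for 54532 genes. The submitters' processing notes name Trim Galore 0.6.5, STAR 2.5.3a, featureCounts 2.0.4 and build mm39. The gene positions in the table nevertheless equal those of GENCODE M21 (GRCm38) for 98.3% of 54409 IDs found there, the 9 chemokines included, and are given on GRCm38. Strandedness and the FPKM formula are not given in the sources used here.

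FPKM times gene length was a whole multiple of the smallest value in 100% of entries of each library (tolerance 0.05 reads), which gave reads and the library sizes implied by the deposited scaling (17253480, 17287959 and 15826985 for WT, PS19 and PS19 Zbp1+/-). Differences were taken as log2(FPKM + 1), the pseudocount being 1, for genes reaching 1 FPKM in either of the 2 libraries, and as ratios of reads per implied library size, with at least 20 reads over both libraries. This log2 scale understates the change of low genes. A 2-fold difference was called. A count of 0 was set to 3 reads. Intervals are exact (Clopper-Pearson or Poisson) at 95%. No p-value was computed.

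The chemokines, the lists and the alternatives were chosen with earlier results of these data known. Genes named were the 9 chemokines, Zbp1, up to 3 called genes per list and comparison with the largest ratio, and the 3 nearest genes by pattern for chemokines with at least 50 reads in all. Other genes (among them Cx3cl1, Cxcl12, Ccr1, Ccr2, Cxcr3, Cxcr6, Ackr1, Adam10, Ccl9, Ccl7, Ccl8, Ccl11, Tnf, Il1b, Ifnb1, Ifng) were chosen after their values were seen. Some genes that this rule or the lists include are counted in the lists but not reported here by name. Rows on unplaced scaffolds were left out of lists. BLAST 2.17.0 found no transcript at 90% identity or more over 100 bases to a chemokine of the 9, outside overlapping genes. The procedure was tested on simulated data. Changes were planted there only in genes with more reads than most of the 9 chemokines had, with counting error alone. Analyses ran under Python 3.11.15 with pandas 2.3.3 and numpy 2.4.6; intervals came from scipy 1.17.1, and figures from matplotlib 3.10.9.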

Additional observations from a re-analysis of the deposited data

Results flagged for a closer look

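Among the rows left out of the lists, a second row for Ccl27a, on the unplaced scaffold JH584293.1, counted 3 reads in WT and 3 in PS19 against 25 in PS19 Zbp1+/-, which is 9.08-fold above WT (exact 95% interval 2.77 to 47). Ccl27a on chromosome 4 had 766, 481 and 537 reads in the same order. Other such rows above WT in a PS19 library were Ccl21c on JH584293.1, with 0, 0 and 7 reads, Ccl21c on GL456350.1, with 2, 8 and 2, and Cxcl11, annotated as a polymorphic pseudogene, with 0, 9 and 0. The table lists Ccl27a and Ccl21c at several rows, so the split of reads between them is uncertain.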

How the results depend on the processing

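No paired analysis was possible because each genotype has 1 library, and for the same reason no library could be left out. For single chemokines, 22 of 22 ratios kept their direction under scaling by total reads and by the microglia markers. After rescaling to TPM 21 of 22 did, and Cxcl14 in PS19 against WT turned from -0.06 to 0.07. On the log2(FPKM + 1) scale the direction is the same by construction, because it uses the same reads and library sizes. TPM moved the median of all genes in PS19 Zbp1+/- against PS19 from 0.04 to -0.23, scaling by total reads to -0.12, and the higher share of calls from 27.9% to 11.1% and 14.7%. A filter of 50 reads left 0 calls among the 9 chemokines and 0 among other ligands in PS19 Zbp1+/- against WT, and 2 other ligands in each comparison with PS19. Without a filter, with reads set to at least 3, other ligands had 4 calls in PS19 Zbp1+/- against WT, receptors 8 in PS19 against WT and 12 in PS19 Zbp1+/- against PS19, signalling genes 2 in PS19 Zbp1+/- against WT, and proteases 1 in PS19 against WT. Scaling by total reads gave 2 other ligands and 4 regulators in PS19 Zbp1+/- against WT, and 8 signalling genes in PS19 Zbp1+/- against PS19. A 4-fold threshold left in PS19 against WT 1 receptor, 3 signalling genes and 2 regulators. In PS19 Zbp1+/- against PS19 it left 3 chemokines by FPKM, 3 receptors, 3 signalling genes, 0 proteases and 2 regulators. In PS19 Zbp1+/- against WT it left 0 chemokines, 1 receptor, 0 signalling genes, 0 proteases and 0 regulators. Fewer genes pass a higher threshold or filter by construction; the cause of the other changes was not tested. With 1 library per genotype, a difference cannot be separated from variation between animals, sex-linked reads or dissection.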
